A study of Mus musculus with 6 samples.

Results

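The proteasome genes described here were the 45 genes that encode the constitutive subunits of the proteasome, its activators and inhibitor, and its dedicated assembly factors. They were chosen by gene symbol, with earlier results of these data known, and all 45 were found among the 41025 genes of the deposited tables. They comprised 7 alpha and 7 beta subunits of the 20S core, 6 ATPase and 12 non-ATPase subunits of the 19S regulatory particle, 5 activator and inhibitor genes and 8 assembly factors. The samples were RNA-seq libraries of total RNA from the tibialis anterior, a fast muscle of the lower hind limb, of C57BL/6 mice aged 8 weeks. There were 3 libraries labelled Mettl21e knockout (KO) and 3 labelled wild type (WT). The labels give neither the design of the deleted allele nor whether each library came from 1 animal, so p-values measure only the spread between these libraries. The question addressed was how the muscle transcriptome differed after deletion of Mettl21e, a muscle gene of the protein lysine methyltransferase family that includes a methyltransferase of the ATPase Vcp.

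The proteasome is the main protease for ubiquitin-tagged proteins and sets much of the rate of protein breakdown in skeletal muscle, where it is known for its part in atrophy. Alpha and beta subunits form the stacked rings of the 20S core, with the catalytic sites on the inner face of the beta rings, and the 19S particle binds, unfolds and feeds in the substrate. Other caps can take the place of the 19S particle, and a set of chaperones guides the assembly of core and cap without staying in the finished complex.

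The targeted gene did not tell the labels apart. Mettl21e stood at 1.64, 1.45 and 1.88 FPKM (fragments per kilobase, scaled to library size) in KO-labelled libraries 1, 2 and 3 and at 2.46, 0.309 and 1.23 FPKM in the WT-labelled ones. The KO-labelled libraries lay inside the range of the WT-labelled ones, with a log2 difference of 0.29 ± 0.31 (SE) and an exact permutation p of 0.7 (two-sided, 3 libraries each, smallest possible 0.1). Whether the reads fall in the deleted stretch cannot be told from a value per gene. The groups are therefore called by their labels throughout. Depth was 8476591 to 10435095 fragments for KO-labelled libraries and 8842349 to 10856669 for WT-labelled ones. The libraries were of fast muscle, with 8 fast-fibre marker genes summing to 69523 to 72376 FPKM in the KO-labelled libraries and 70217 to 76360 FPKM in the WT-labelled ones. These markers cannot tell the tibialis anterior from other fast muscles. Of these 8, 5 had a higher and 3 a lower mean in the KO-labelled libraries, and 0 were called. An unadjusted p under 0.05 in limma was reached by 1 of them (Myh1, higher, named after its values were seen). The 5 slow-fibre markers summed to 31.7 to 65.0 FPKM in the KO-labelled libraries and 67.6 to 171 FPKM in the WT-labelled ones, and all 5 had lower means in the KO-labelled libraries, 3 of them with an unadjusted p under 0.05 and none past adjustment. All tested fibroblast (6), tendon (4), endothelial (4) and adipocyte (3) markers also had lower means in the KO-labelled libraries, with 0 called. Of 3 Schwann markers 2 were higher, and of 3 smooth muscle and 3 erythroid markers 1 each. The fibroblast sum was 218, 238 and 302 FPKM in KO-labelled libraries 1, 2 and 3 and 209, 440.3 and 423 FPKM in the WT-labelled ones, so WT-labelled libraries 2 and 3 carried the lower means. The endothelial sum was likewise lowest in WT-labelled library 1 and highest in the other two WT-labelled libraries. In bulk tissue, fewer cells of a type and less RNA per cell cannot be told apart.

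No proteasome gene differed between the labels past the test, and most were measured closely enough to bound the difference. All 45 members passed the filter of a mean of at least 1 FPKM, and 0 of 45 had an adjusted p under 0.05 in limma with Benjamini-Hochberg adjustment over 11383 genes. The members' adjusted p-values ran from 0.988 to 0.999. Among all tested genes 0 were called (0.00%), 523 had an unadjusted p under 0.05 (4.59%), and voom on recovered fragments also called 0, with 465 at an unadjusted p under 0.05. The count at an unadjusted p under 0.05 was 1357 without WT-labelled library 1, 1413 with library weights and 341 without WT-labelled library 3. The members at an unadjusted p under 0.05 were Psmd5 and Psmd11, 2 of 45, both lower in the KO-labelled libraries, where 3.31% of all tested genes were lower and 1.28% higher at that p. That count of members was 0 to 3 under the alternatives, with 3 without WT-labelled library 1 and 0 without KO-labelled library 2 or WT-labelled library 3. Differences are given as log2(FPKM + 1), KO-labelled minus WT-labelled, and ran from -0.32 to 0.11 over the members with a median of -0.04, beside a median of -0.02 over all tested genes. The mean was higher in the KO-labelled libraries for 17 members and lower for 28 (62.2%), while 56.7% of all tested genes were lower. With each library's median subtracted, 20 members were lower and their median difference was 0.01, so neither the count nor the sign of the median was independent of scaling.

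The intervals bounded the differences. For 19 of 45 members (42.2%) the whole 95% interval of the difference lay within 1.2-fold in either direction, against 11.8% of all tested genes and 36.8% of the 1243 genes in the same FPKM range as the 20S and 19S members. Within 1.5-fold lay the intervals of 43 of 45 members (95.6%), against 80.5% of all tested genes and 93.6% of the genes in that FPKM range. The exceptions were Psmd5 and Psmg4, both assembly factors. These bounds are folds of FPKM + 1, and the added 1 narrows them for low genes such as Psmg3. The 32 genes of the 20S and 19S alone, to which that FPKM range belongs, had 18 intervals within 1.2-fold (56.2%) and all 32 within 1.5-fold. Over all 45 members, the median coefficient of variation was 5.86% among the KO-labelled libraries and 6.09% among WT-labelled ones. Counting alone gives 3.27%. Groups did not overlap for 7 members (15.6%), against 9.48% of all tested genes. Among these 7, Psmd1, Psmd2 and Psmd14 were higher in every KO-labelled library (3 of 45, against 3.84% of all tested genes). Psmb3, Psmb7, Psmd5 and Psmd9 were lower in every one (4 of 45, against 5.64%).

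**Figure D1:**
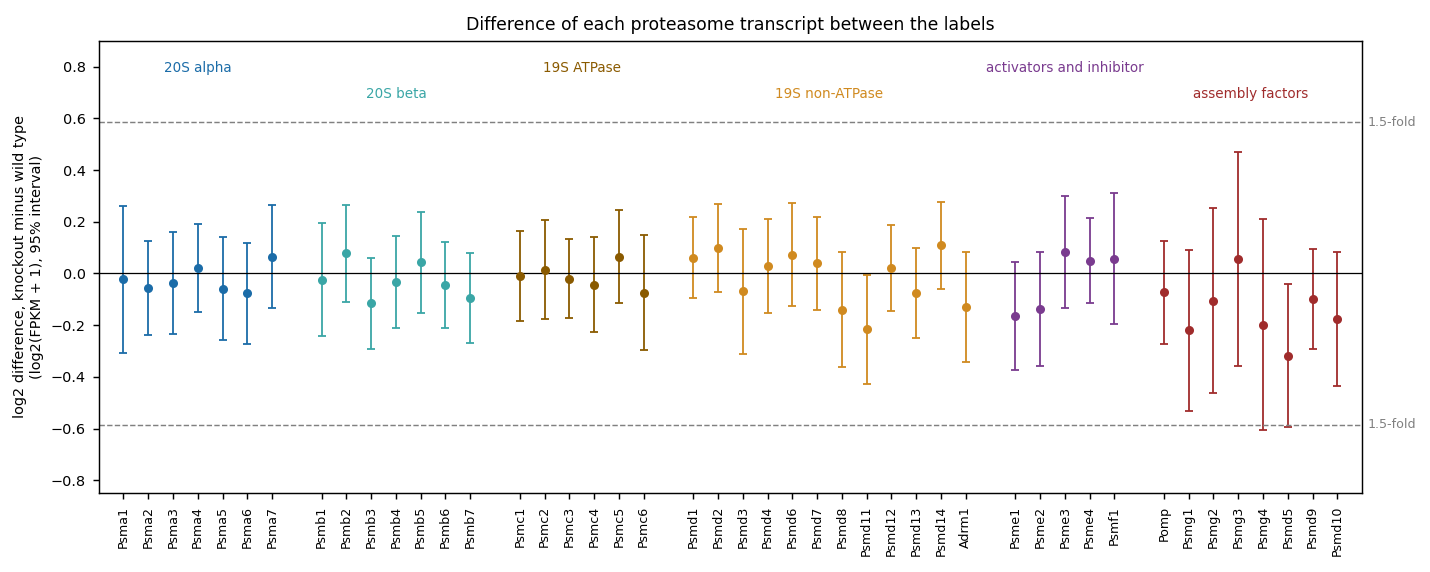
Log2 difference (KO-labelled minus WT-labelled, log2(FPKM + 1) scale) of each of the 45 proteasome genes by role, with its 95% interval from limma. Points run from -0.32 (Psmd5) to 0.11 (Psmd14), and of the 8 assembly factors 0 have an interval within 1.2-fold.

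The 7 alpha subunits, which form the outer rings and the gate of the core, stood at means of 76.5 to 154 FPKM over the 6 libraries. Of these 7, 2 had a higher and 5 a lower mean in the KO-labelled libraries, with differences from -0.08 to 0.07 and a median of -0.04. That median was 0.01 with each library's median subtracted and 0.04 without WT-labelled library 1. The highest of them, Psma3, was at 146, 154 and 155 FPKM in KO-labelled libraries 1, 2 and 3 and at 173, 146 and 149 FPKM in the WT-labelled ones. WT-labelled library 1 stood above the other 5, which overlapped. Psma3 averaged 152 ± 5.02 FPKM in the KO-labelled libraries and 156 ± 14.8 FPKM in the WT-labelled ones (SD, n = 3 each), a difference of -0.04 with an interval of -0.23 to 0.16. The lowest, Psma5, was at 67.7, 78.0 and 79.2 FPKM in the KO-labelled libraries and at 81.3, 76.6 and 76.0 FPKM in the WT-labelled ones. Its groups overlapped, with KO-labelled library 1 low and WT-labelled library 1 high. Of the alpha genes Psma6 had the smallest unadjusted p, 0.395 in limma, with 148, 146 and 132 FPKM in the KO-labelled libraries and 162, 141 and 147 FPKM in the WT-labelled ones. WT-labelled library 1 was highest and KO-labelled library 3 lowest, and the difference of -0.08 had an interval of -0.27 to 0.12. For 4 of the 7 alpha genes the interval lay within 1.2-fold and for all 7 within 1.5-fold.

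Among the 7 beta subunits, 3 carry the active sites of the core. Psmb6, the caspase-like site, was at 190.5, 205 and 197 FPKM in KO-labelled libraries 1, 2 and 3 and at 213, 198 and 199 FPKM in the WT-labelled ones. The groups overlapped, and the difference of -0.04 (interval -0.21 to 0.12) was smaller than the spread within either label. Psmb5, the chymotrypsin-like site and the target of bortezomib, was at 141, 141 and 127 FPKM in the KO-labelled libraries and at 144, 127 and 126 FPKM in the WT-labelled ones. Its difference was 0.04 (interval -0.15 to 0.24), and the 6 values fell near 141 or near 127 FPKM under both labels. Psmb7, the trypsin-like site, was at 58.7, 62.2 and 65.0 FPKM in the KO-labelled libraries and at 65.8, 65.5 and 67.3 FPKM in the WT-labelled ones. All 3 KO-labelled libraries lay below all 3 WT-labelled ones, though KO-labelled library 3 came close. Psmb7 averaged 62.0 ± 3.16 FPKM in the KO-labelled libraries and 66.2 ± 0.961 FPKM in the WT-labelled ones (SD, n = 3 each), a difference of -0.10 with an interval of -0.27 to 0.08.

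The remaining 4 beta subunits are structural. Psmb3 had the largest difference of the beta genes at -0.12 (interval -0.29 to 0.06, unadjusted p = 0.165 in limma). It stood at 106, 117 and 117 FPKM in the KO-labelled libraries and at 125, 118 and 126 FPKM in the WT-labelled ones. The groups did not overlap, though KO-labelled libraries 2 and 3 and WT-labelled library 2 nearly met. Psmb1, Psmb2 and Psmb4 had differences of -0.02, 0.08 and -0.03. In all, 2 beta subunits had a higher and 5 a lower mean in the KO-labelled libraries, with a median of -0.03 that was 0.01 with each library's median subtracted.

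The 6 ATPases, which form the ring that unfolds substrates and opens the core, were the steadiest group by interval, 5 of 6 lying within 1.2-fold. The highest member of all 45, Psmc3, was at 214, 219 and 224 FPKM in KO-labelled libraries 1, 2 and 3 and at 225, 218 and 224 FPKM in the WT-labelled ones. These values overlapped almost fully, at 219 ± 4.91 FPKM in the KO-labelled libraries and 222 ± 3.62 FPKM in the WT-labelled ones (SD, n = 3 each), a difference of -0.02 with an interval of -0.17 to 0.13. The lowest ATPase, Psmc2, was at 47.9, 45.9 and 45.2 FPKM in the KO-labelled libraries and at 48.9, 42.4 and 46.5 FPKM in the WT-labelled ones. Psmc5 was at 96.5, 88.0 and 85.7 FPKM in the KO-labelled libraries and at 89.7, 83.8 and 84.3 FPKM in the WT-labelled ones. Its difference of 0.07 (interval -0.12 to 0.25) rested mainly on KO-labelled library 1, and the groups overlapped. Over the 6 ATPases, 2 had a higher and 4 a lower mean in the KO-labelled libraries, from -0.07 to 0.07.

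Of the 12 non-ATPase subunits of the 19S particle, 7 had a higher and 5 a lower mean in the KO-labelled libraries. The median difference was 0.02, or -0.01 without WT-labelled library 2. That median was 0.07 with each library's median subtracted and 0.06 when scaled without mitochondrial genes. Psmd14, the deubiquitinase that strips ubiquitin from substrates as they enter, had the largest positive difference of all members. The gene (ENSMUSG00000026914) lies on the plus strand at chr2:61711694-61800376 of mm10. It was at 75.9, 75.4 and 75.0 FPKM in KO-labelled libraries 1, 2 and 3 and at 69.0, 67.5 and 73.4 FPKM in the WT-labelled ones. The groups did not overlap, and the difference was 0.11 with an interval of -0.06 to 0.28. Psmd2, a large scaffold subunit that docks shuttle proteins and the deubiquitinase Usp14, was at 209, 217 and 209 FPKM in the KO-labelled libraries and at 184, 206 and 203 FPKM in the WT-labelled ones. Every KO-labelled library was above every WT-labelled one, with WT-labelled library 1 lowest, and the difference was 0.10 (interval -0.07 to 0.27). Psmd1, the other large scaffold subunit, was at 86.2, 85.3 and 85.5 FPKM in the KO-labelled libraries and at 80.8, 83.4 and 82.1 FPKM in the WT-labelled ones, again without overlap. The difference for Psmd1 was 0.06 with an interval of -0.10 to 0.22, so none of the 3 genes passed the test.

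Psmd11, a lid subunit that bridges the 19S particle and the core and is limiting for assembly in worms and human stem cells, had the largest negative difference of the 19S genes. The gene (ENSMUSG00000017428) lies on the plus strand at chr11:80428615-80473248. It was at 85.7, 70.8 and 76.2 FPKM in KO-labelled libraries 1, 2 and 3 and at 95.4, 89.6 and 85.4 FPKM in the WT-labelled ones. The groups overlapped only in that KO-labelled library 1 lay just above WT-labelled library 3. Psmd11 averaged 77.6 ± 7.53 FPKM in the KO-labelled libraries and 90.1 ± 5.03 FPKM in the WT-labelled ones (SD, n = 3 each), a difference of -0.22. Its interval reached from -0.43 to just below 0, at an unadjusted p of 0.0463 and an adjusted p of 0.988 in limma. Adrm1, a ubiquitin receptor and the lowest of the non-ATPase genes, was at 56.0, 49.9 and 48.7 FPKM in the KO-labelled libraries and at 52.9, 61.5 and 55.0 FPKM in the WT-labelled ones. KO-labelled library 1 lay inside the other label's range and the difference was -0.13. Psmd4, also a ubiquitin receptor, had a difference of 0.03.

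The next 5 genes encode activators, which bind the ends of the core in place of the 19S particle, and an inhibitor. Psme4, whose product is the large single-chain cap PA200, was at 157, 154 and 158 FPKM in KO-labelled libraries 1, 2 and 3 and at 154, 157 and 143 FPKM in the WT-labelled ones. Its groups overlapped, and the difference of 0.05 had an interval of -0.11 to 0.21. Psme1 and Psme2 encode the alternating subunits of the interferon-inducible cap. Psme1 was at 31.1, 34.1 and 30.4 FPKM in the KO-labelled libraries and at 38.9, 35.4 and 33.4 FPKM in the WT-labelled ones, with KO-labelled library 2 inside the range of the other label. The Psme1 difference was -0.17 (interval -0.37 to 0.04, unadjusted p = 0.108 in limma), and that of Psme2 was -0.14. Psme3, the nuclear cap, had a difference of 0.08. The inhibitor gene Psmf1 was the lowest of these, at 5.63, 5.79 and 5.64 FPKM in the KO-labelled libraries and at 5.43, 6.01 and 4.90 FPKM in the WT-labelled ones. For 1 of these 5 genes the interval lay within 1.2-fold.

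The 8 assembly factors averaged 1.46 to 66.9 FPKM over the 6 libraries, and 0 of the 8 had an interval within 1.2-fold. Of them, 1 had a higher and 7 a lower mean in the KO-labelled libraries, with a median difference of -0.14. Without WT-labelled library 1 that median was -0.05, and without WT-labelled library 2 -0.23, so its size turned on single libraries. Psmd5, a chaperone of the 19S base, had the largest difference of all 45 members. The gene (ENSMUSG00000026869) lies on the minus strand at chr2:34849734-34874968. It was at 8.39, 7.95 and 9.61 FPKM in KO-labelled libraries 1, 2 and 3 and at 10.2, 10.3 and 12.6 FPKM in the WT-labelled ones, from 161 to 222 fragments a library. All 3 KO-labelled libraries were below all 3 WT-labelled ones, with library 3 the highest under each label. Psmd5 averaged 8.65 ± 0.859 FPKM in the KO-labelled libraries and 11.05 ± 1.38 FPKM in the WT-labelled ones (SD, n = 3 each). The difference was -0.32 ± 0.12 (SE), with an unadjusted p of 0.0285 and an adjusted p of 0.988 in limma.

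Psmd9, another base chaperone, was at 19.8, 18.7 and 19.2 FPKM in the KO-labelled libraries and at 21.8, 20.4 and 19.9 FPKM in the WT-labelled ones. The groups did not overlap but nearly met, and the difference was -0.10. Psmd10, the base chaperone known as gankyrin, had a difference of -0.18. Pomp, which matures the beta rings and was the highest of the assembly factors, was at 60.4, 69.5 and 65.6 FPKM in KO-labelled libraries 1, 2 and 3 and at 73.4, 65.7 and 66.7 FPKM in the WT-labelled ones. Its groups overlapped, and the difference was -0.07. Of the genes for chaperones of the alpha ring, Psmg1, Psmg2 and Psmg4 had differences of -0.22, -0.11 and -0.20. Psmg3 was the lowest of all 45 members, at 1.69, 1.79 and 1.06 FPKM in the KO-labelled libraries and at 1.81, 1.24 and 1.18 FPKM in the WT-labelled ones. With 12 to 26 fragments a library, its interval of -0.36 to 0.47 bounds little.

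**Figure D2:**
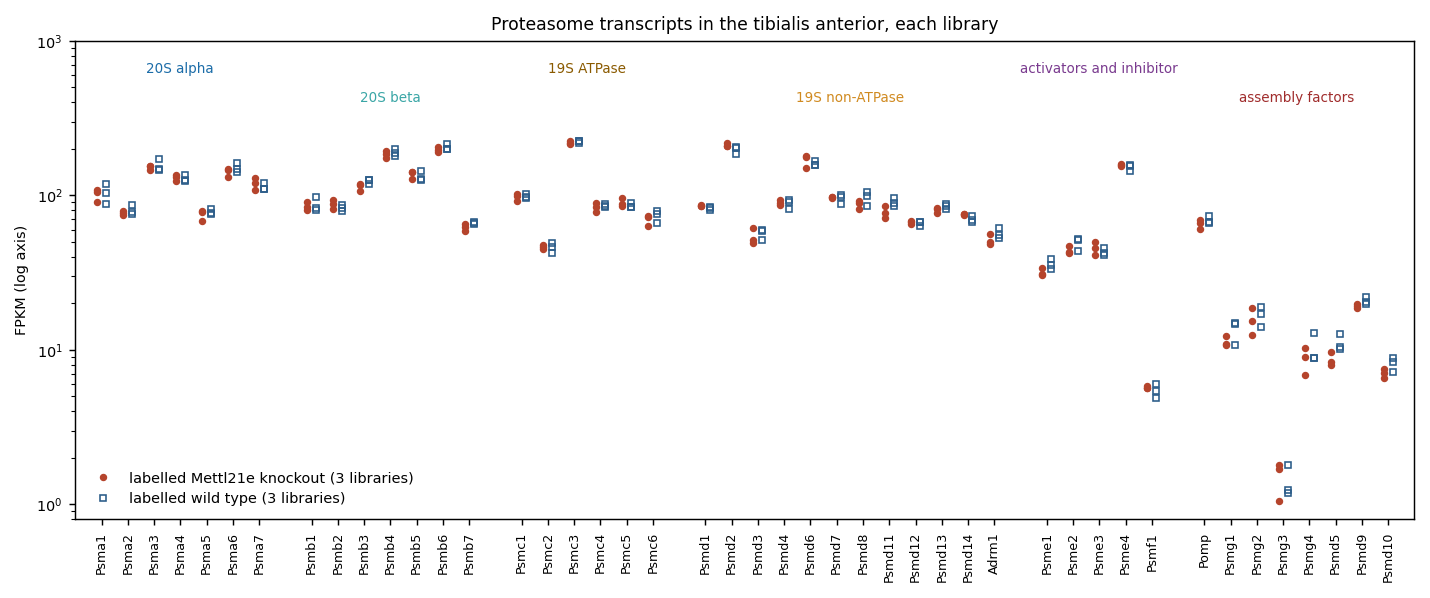
FPKM of each proteasome gene in each of the 6 libraries, on a log axis, grouped by role, with KO-labelled and WT-labelled libraries in separate colours. Core and 19S genes lie between 42.4 and 225 FPKM in every library, and assembly factors reach down to 1.06 FPKM.

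Proteasome genes shared a pattern across libraries that followed 1 library and not the labels. WT-labelled library 1 was the highest of the 6 for 22 of 45 members (48.9%), against 17.3% of all tested genes and 22.7% of genes in the FPKM range of the 20S and 19S members. It stood above the member's own mean for 36 of 45 (80.0%), against 45.8% of all tested genes and 54.1% of genes in that FPKM range. By role it was highest for 5 of 7 alpha, 4 of 7 beta, 2 of 6 ATPase, 3 of 12 non-ATPase, 1 of 5 activator and 7 of 8 assembly genes. By that count the alpha and assembly genes held the largest shares. WT-labelled library 1 was above the member's own mean for 7 of 7 alpha, 6 of 7 beta and 6 of 6 ATPase genes. The same held for 7 of 12 non-ATPase, 2 of 5 activator and 8 of 8 assembly genes. In the KO-labelled libraries, library 1 was the lowest of the 6 for 15 of 45 members (33.3%), against 16.0% of all tested genes. The median difference over the members was -0.0008 without WT-labelled library 1, beside -0.04 with it. Depth of that library, 10752204 fragments, lay inside the range of the others. Some marker sums also set it apart. The fast-fibre sum was highest of the 6 at 76360 FPKM, though of its genes only Mylpf and Pvalb were highest there. The slow-fibre sum was also highest there, at 171 FPKM. The fibroblast (209 FPKM), endothelial (78.8 FPKM), smooth muscle (98.0 FPKM) and Schwann (55.4 FPKM) sums were lowest of the 6. By gene, that library was lowest for 5 of 6 fibroblast, 4 of 4 endothelial, 3 of 3 smooth muscle and 1 of 3 Schwann markers. The adipocyte, leukocyte, tendon and erythroid sums were lowest in other libraries. The part of these marker differences in the pattern was not tested.

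**Figure D3:**
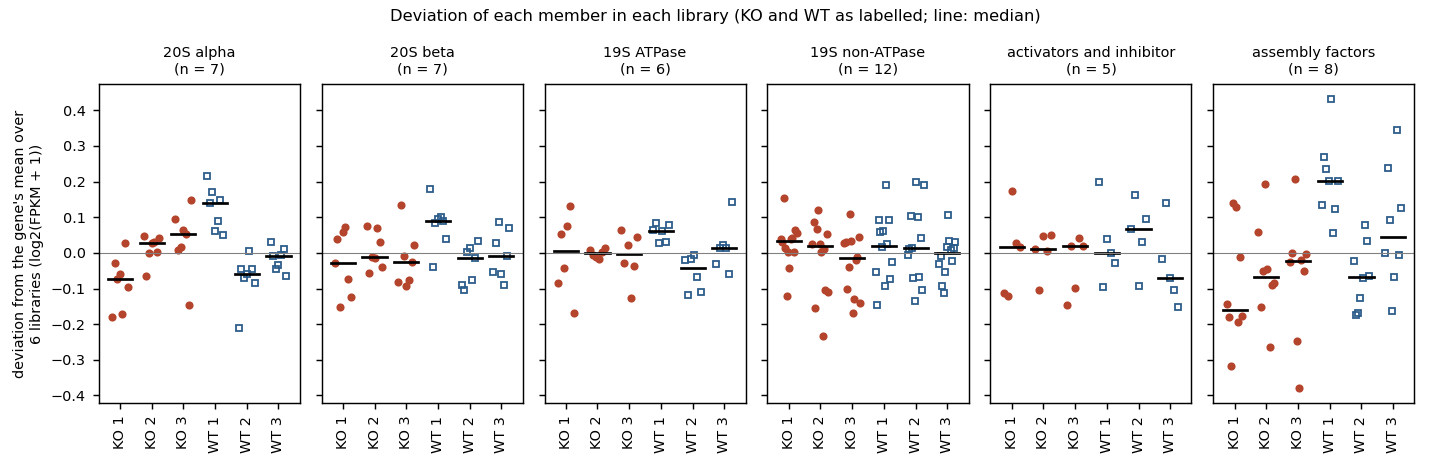
Deviation of each proteasome gene from its own mean over the 6 libraries, on the log2(FPKM + 1) scale, by library and role. WT-labelled library 1 lies above the mean for 36 of 45 genes, and all 7 alpha and all 8 assembly genes are above it there.

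Summed over members, the transcript pool of the proteasome was nearly constant. All 45 members summed to 3792, 3872 and 3839 FPKM in KO-labelled libraries 1, 2 and 3 and to 4022, 3793 and 3828 FPKM in the WT-labelled ones. Apart from WT-labelled library 1 the sums lay within a narrow band that held both labels. As a share of all FPKM in the library, the members made up 0.563%, 0.559% and 0.548% in the KO-labelled libraries. In the WT-labelled ones the share was 0.567%, 0.558% and 0.555%, so WT-labelled library 1 was highest but close to KO-labelled library 1. The ratio of mean FPKM of the 19S genes to that of the 20S genes was 0.841, 0.809 and 0.811 in the KO-labelled libraries and 0.764, 0.839 and 0.822 in the WT-labelled ones, and the ratio of beta to alpha genes also overlapped. The ratio of assembly factors to 20S genes was 0.141, 0.145 and 0.147 in the KO-labelled libraries and 0.158, 0.150 and 0.158 in the WT-labelled ones. These last values did not overlap. The same holds with the 7 assembly factors other than Pomp, at 0.0862, 0.0837 and 0.0898 in the KO-labelled libraries and 0.0991, 0.0899 and 0.0996 in the WT-labelled ones, where KO-labelled library 3 and WT-labelled library 2 nearly met. Pomp alone over 20S overlapped between labels. This ratio was singled out after its values were seen, has no test, and its difference of means lay between -0.0135 and -0.00892 when 1 library at a time was left out.

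Levels of different subunits can be compared only per length, and the length used affects their order. The length by which the authors' values were divided, recovered from the whole-fragment steps of the FPKM values, was within 1 base of the mean length of the annotated transcripts for 30 of 45 members. That mean can include short and non-coding transcripts of the gene. The longest coding transcript was over 2-fold longer than the length used for 10 members, and the ratio ran from 0.579 for Psmb7 to 4.53 for Psme4. Psme4 ranked 6 of 45 in deposited FPKM, and on its coding transcript it came to 34.0 FPKM and ranked 31. Within the 20S core, whose 14 subunits are present in equal number, the highest level was 3.13-fold above the lowest as deposited and 7.68-fold on coding transcripts, from 25.4 FPKM for Psma2 to 195 FPKM for Psmb6. The length cancels from the FPKM ratio between the labels. Counting is also uncertain for 9 members with over 10% of their 50-base words in other annotated transcripts, among them Psmb5 and Psma5. A further source of uncertainty is that strand use is not given, and 9 members, among them Psmb7, Psmd1 and Psmd9, overlap an exon on the other strand.

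**Figure D4:**
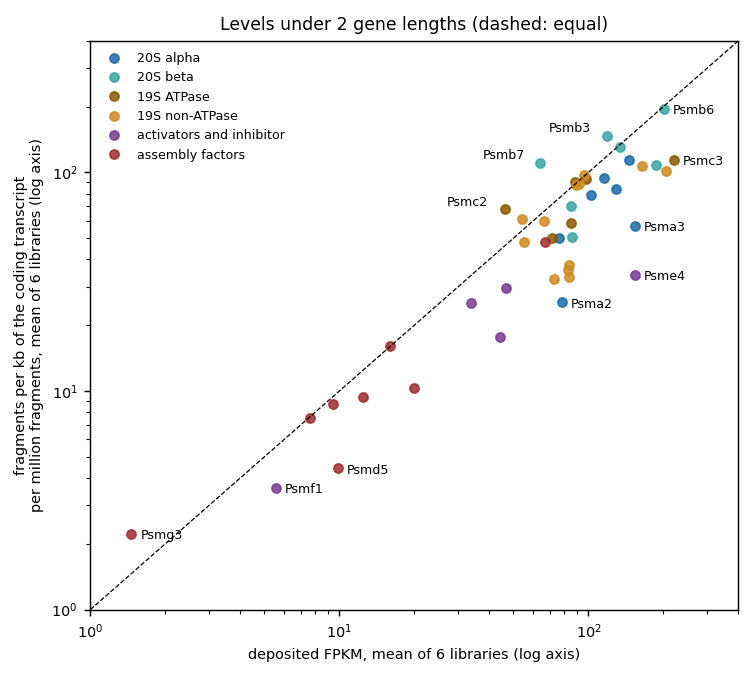
Mean level of each proteasome gene per coding-transcript length against its mean deposited FPKM over the 6 libraries, on log axes in FPKM. Psme4 lies farthest below the line of equality, at 34.0 FPKM on its coding transcript.

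Promoter sequence was examined because many proteasome genes share transcription factors, chief among them Nfe2l1, which binds antioxidant response elements and raises proteasome genes when proteolysis is impaired. RefSeq promoters of build GRCm38.p6, the assembly of the deposited values, were at hand for 38 of 45 members and cover 250 bases before to 50 bases after the start. Both strands were searched for TGANNNNGC, the antioxidant response element core, for CCAAT, for CCGGAAG, a core of ETS factor sites, and for the nuclear respiratory factor palindrome, which is GCGCN followed at once by TGCGC. Matches of different motifs can overlap, and in Psmd14 CCAAT matches on opposite strands do. The element core was present in 21 of 38 members (55.3%), against 45.05% of 27025 genes, and CCAAT in 13 (34.2%), against 41.1%. The ETS core was present in 16 (42.1%), against 9.93%, in 7 of the 10 non-ATPase and 0 of the 4 beta genes with a promoter. The palindrome was present in 7 (18.4%), against 5.19%. The 27025 genes were all those with a promoter at hand and were not matched to the members in level. Matches are descriptions of letters in a window and not binding sites.

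The 5 promoters below were chosen after the values were seen. They belong to the catalytic subunits Psmb5 and Psmb6 and to Psmd14, Psmd5 and Psmd11. Psmd14 and Psmd5 had the largest positive and negative differences, and Psmd11 the most negative of the 19S genes. Psmg1, slightly more negative than Psmd11, is not shown, and Psmb7 had no promoter at hand. Capitals mark every match in the 5 promoters. Those of Psmb5 (chr14:54617946-54618245, minus strand) and Psmb6 (chr11:70525107-70525406, plus strand) hold the element core, once near the start in Psmb6. The promoter of Psmd14 (chr2:61711444-61711743, plus strand) holds the palindrome and CCAAT on both strands. In Psmd11 (chr11:80428365-80428664, plus strand) the ETS core lies on the opposite strand, and in Psmd5 (chr2:34870913-34871212, minus strand) the element core does.
Psmb5: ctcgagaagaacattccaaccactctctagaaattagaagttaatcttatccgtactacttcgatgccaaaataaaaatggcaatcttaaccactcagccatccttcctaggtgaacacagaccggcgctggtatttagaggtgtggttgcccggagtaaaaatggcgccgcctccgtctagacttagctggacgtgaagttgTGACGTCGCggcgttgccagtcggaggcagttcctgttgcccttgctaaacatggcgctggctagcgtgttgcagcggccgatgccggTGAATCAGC
Psmb6: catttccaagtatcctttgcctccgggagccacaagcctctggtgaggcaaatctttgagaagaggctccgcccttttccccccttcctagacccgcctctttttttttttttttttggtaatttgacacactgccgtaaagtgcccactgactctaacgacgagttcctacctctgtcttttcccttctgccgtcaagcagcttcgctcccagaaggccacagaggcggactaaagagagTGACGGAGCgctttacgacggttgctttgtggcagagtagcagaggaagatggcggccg
Psmd14: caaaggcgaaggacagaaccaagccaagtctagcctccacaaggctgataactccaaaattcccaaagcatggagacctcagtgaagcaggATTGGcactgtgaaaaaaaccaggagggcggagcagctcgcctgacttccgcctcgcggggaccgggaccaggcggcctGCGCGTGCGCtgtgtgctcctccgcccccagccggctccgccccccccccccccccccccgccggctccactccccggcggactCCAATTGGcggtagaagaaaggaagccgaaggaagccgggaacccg
Psmd11: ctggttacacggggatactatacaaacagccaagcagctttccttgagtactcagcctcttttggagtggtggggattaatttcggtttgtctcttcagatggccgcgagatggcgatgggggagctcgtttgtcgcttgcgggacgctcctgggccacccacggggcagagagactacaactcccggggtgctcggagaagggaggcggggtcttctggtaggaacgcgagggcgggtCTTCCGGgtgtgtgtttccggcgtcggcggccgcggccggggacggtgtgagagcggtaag
Psmd5: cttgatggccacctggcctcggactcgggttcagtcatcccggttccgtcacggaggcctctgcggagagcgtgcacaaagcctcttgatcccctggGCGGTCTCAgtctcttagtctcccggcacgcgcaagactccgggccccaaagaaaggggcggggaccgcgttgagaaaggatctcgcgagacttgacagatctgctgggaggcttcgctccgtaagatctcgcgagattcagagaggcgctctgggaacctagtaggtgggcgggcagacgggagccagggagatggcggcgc

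Genes around the proteasome gave the same picture of no call. Nfe2l1 was at 368, 283 and 288 FPKM in KO-labelled libraries 1, 2 and 3 and at 276, 397 and 362 FPKM in the WT-labelled ones, overlapping widely. In WT-labelled library 1, where the subunits were high, Nfe2l1 was at its lowest, though KO-labelled libraries 2 and 3 came close to it. Whether these levels are linked was not tested. Of 17 regulators of proteasome gene transcription, 9 had a higher and 8 a lower mean in the KO-labelled libraries, and 0 were called. Vcp, the ATPase that extracts Nfe2l1 and other ubiquitinated proteins for degradation, averaged 309 ± 25.3 FPKM in the KO-labelled libraries and 319 ± 8.59 FPKM in the WT-labelled ones (SD, n = 3 each). Of 18 tested partners, which include receptors, deubiquitinases and shuttles, 9 were higher, 9 were lower and 0 were called, with 1 at an unadjusted p under 0.05 in limma (Zfand2a, lower, named after its values were seen). The highest of them was Zfand5, a zinc-finger activator of the 26S proteasome, at 123 ± 9.65 FPKM in the KO-labelled libraries and 121 ± 34.2 FPKM in the WT-labelled ones. Ecpas, an adaptor of the 26S proteasome, averaged 114 ± 0.694 FPKM in the KO-labelled libraries and 105 ± 8.82 FPKM in the WT-labelled ones. The 6 ubiquitin and ubiquitin-activating genes gave 2 higher and 4 lower with 0 called. Ubb, the highest of them, averaged 439.5 ± 28.0 FPKM in the KO-labelled libraries and 451 ± 27.8 FPKM in the WT-labelled ones.

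The inducible subunits that replace the catalytic beta subunits in immune cells were low and not called. Psmb8, the counterpart of Psmb5 and named here outside the rule, was at 1.07, 3.11 and 2.44 FPKM in KO-labelled libraries 1, 2 and 3 and at 2.57, 3.43 and 2.73 FPKM in the WT-labelled ones. Psmb9 averaged 4.05 ± 0.315 FPKM in the KO-labelled libraries and 5.50 ± 1.94 FPKM in the WT-labelled ones, and Psmb10 averaged 12.0 ± 0.975 FPKM in the KO-labelled libraries and 13.6 ± 0.789 FPKM in the WT-labelled ones (SD, n = 3 each). All 3 had lower means in the KO-labelled libraries, with overlapping groups. By deposited FPKM, the Psmb8 share of Psmb8 and Psmb5 was 0.751% to 2.16% in the KO-labelled libraries and 1.75% to 2.63% in the WT-labelled ones. The constitutive subunit thus made up nearly all of that pair. The Psmb9 share of Psmb9 and Psmb6 was 1.91% to 2.11% in the KO-labelled libraries and 1.66% to 3.63% in the WT-labelled ones. The Psmb10 share of Psmb10 and Psmb7 was larger, at 15.6% to 16.8% in the KO-labelled libraries and 16.4% to 17.7% in the WT-labelled ones. These shares depend on the length used. Psmb7 averaged 64.1 FPKM over the 6 libraries as deposited and 111 FPKM on its coding transcript, and Psmb10 was not rescaled. Thymus-specific Psmb11 was listed at 0 in all 6 libraries. Leukocyte markers were also lower on average, with all 4 tested having lower means and the list summing to 28.7 to 37.5 FPKM in the KO-labelled libraries and 30.4 to 73.3 FPKM in the WT-labelled ones, of which WT-labelled library 1 lay inside the KO-labelled range. Their part in the values of Psmb8, Psmb9, Psmb10, Psme1 and Psme2 was not tested.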

How the data were processed

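RNA-seq of 6 libraries was deposited as FPKM per gene, computed by the authors. TopHat2 2.1.1, Cufflinks 2.2.1 and build mm10 are named in the submitters' processing notes. Strand use, like the annotation and the part of each tool, was not given in the sources used here. Titles gave group and replicate number.

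The test was limma 3.58.1 (R 4.3.3) with a mean-variance trend, on the log2 scale after adding 1 to each FPKM, which understates changes of low genes. Genes averaging under 1 FPKM over the 6 libraries were left out. P-values were adjusted by the Benjamini-Hochberg method and called under 0.05, and the procedure was tested on simulated data. FPKM values were turned back into whole fragments, within a tolerance of 0.002, by finding each gene's length. For 282 genes the length found was multiplied to match the mean annotated transcript length. The recovered fragments made up 99.9% of each library total. Gene positions and transcripts came from a GENCODE annotation of mm10.

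The members and lists were chosen with earlier results of these data known. Named with values per library were 22 members by rule: the highest and lowest of each role, the smallest unadjusted p of each role, the catalytic subunits, and members whose groups did not overlap. Psme3ip1 was matched by its synonym, and Paaf1 was not analysed here. Alternatives were another pseudocount, other filters and scalings, library weights, no trend, a replicate block and leaving out each library. Fits with voom on recovered fragments, coding-transcript lengths and the assembly ratio without single libraries or Pomp were chosen after seeing the data.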

Additional observations from a re-analysis of the deposited data

How the results depend on the processing

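No member passed the test under any of the 17 alternatives, and the lowest adjusted p of any member was 0.299, with library weights. Members lower in the KO-labelled libraries numbered 28, and 20 to 32 over the alternatives. Over all tested genes 0 were called, and 0 to 3 when 1 library was left out (1 without KO-labelled library 3 or WT-labelled library 1, and 3 without WT-labelled library 3). With library replicate number as a block, 0 genes and 0 members were called and 2 members had an unadjusted p under 0.05, a count that was 3 with library weights or without WT-labelled library 1 and 0 without mitochondrial genes, KO-labelled library 2 or WT-labelled library 3. Genes at an unadjusted p under 0.05 numbered 339 with a mean of at least 5 FPKM and 987 with no filter. Same-numbered libraries did not deviate together (r of 0.02, -0.04 and 0.02 across genes), so the numbers were not taken as pairs. Mettl21e ran from -0.068 (without WT-labelled library 2) to 0.63 when 1 library was left out, and was 0.65 with a pseudocount of 0.1 and 0.74 by voom, against 0.29 as reported.

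Of 373 alternative values of the 22 members, 13 changed sign, all near 0. With the median subtracted, Psma3 came to 0.01, Psmb6 to 0.0021 and Psmc3 to 0.026. Psmc3 was 0.013 by quantile normalization and 0.011 without mitochondrial genes, and Psma3 was 0.018 with library weights. When 1 library was left out, Psma3 ran from -0.081 to 0.039, Psma5 from -0.0996 to 0.0128, Psmc2 from -0.041 to 0.0596, Psmf1 from -0.0054 to 0.1185 and Psmg3 from -0.0241 to 0.1954. The cause was not tested. The difference of Psmd11 ran from -0.29 to -0.15 and that of Psmd5 from -0.39 to -0.23 in those fits. With 3 libraries a label, a member that missed the threshold is not shown to be equal between labels.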
